A study of Mus musculus with 4 samples.

Results

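The genes described here are 10 mouse genes of the tumour necrosis factor (TNF), interleukin-1 (IL-1) and TWEAK pathways, read in single cells of frontal cortex and midbrain. They were taken as a named list, and all 10 were found among the 19602 genes listed for frontal cortex and the 19956 listed for midbrain. The 4 ligand genes are Tnf, Il1a, Il1b and Tnfsf12. The 3 receptor genes are Tnfrsf1a, Tnfrsf1b and Tnfrsf12a. The 3 target genes are Nfkbia, Nfkbiz and Tnfaip3. The study set transgenic mice of the line Hua-Syn(A53T), which carry human alpha-synuclein with the A53T change, beside wildtype C57BL/6 littermates, with 1 library per region and genotype. The mice were 6 to 9 months old, and the study's design states 3 mice per group. The sample labels give a mouse number of 3 for frontal cortex and 0 for midbrain, and neither the transgene's promoter nor which cells carry it is given in the sources used here. With 1 library per group the animals cannot be separated, so no ratio below has a replicate check and no p-value is given.

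TNF and IL-1 are made in the brain mainly by microglia and by macrophages at its borders. Tnfrsf1a encodes the TNF receptor that most cell types carry, whereas Tnfrsf1b encodes the second TNF receptor, which is largely a receptor of immune cells. Tnfsf12 encodes TWEAK, a TNF-family ligand, and Tnfrsf12a encodes Fn14, its receptor, which is known for low levels in resting tissue and high levels after injury. These receptors, and the IL-1 receptor, all lead to the transcription factor NF-kB. NF-kB in turn induces its own brakes, among them Nfkbia (the inhibitor IkB-alpha, which holds NF-kB in the cytoplasm) and Tnfaip3 (A20, a ubiquitin-editing enzyme that shuts off TNF receptor signalling). Nfkbiz encodes IkB-zeta, a nuclear cofactor for a subset of NF-kB targets.

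The 4 libraries held 3775 transgenic and 6239 wildtype cells from frontal cortex and 3995 and 7635 from midbrain. Their totals ran from 30712684 to 56588233 unique molecular identifiers (UMIs, counted RNA molecules), with medians of 6900 to 8193 per cell. Pairs of libraries shared 3 to 15 cell barcodes. Cell types were the deposited labels. Of the marker genes of each type, the label MG was highest for 12 of 12 microglial markers in both regions, EC for 10 of 10 endothelial, MAC for 7 of 7 border macrophage and AC for 11 of 12 astrocyte markers. Mural markers were highest in PC (7 of 10) and SMC (3 of 10). The cells labelled OPC were highest for 7 (frontal cortex) and 6 (midbrain) of 8 fibroblast markers. In frontal cortex they were also highest for 6 of 8 oligodendrocyte progenitor markers. In midbrain the cells labelled imNeur were highest for 8 of 8 oligodendrocyte progenitor markers, so these labels are used below only as names. Frontal cortex astrocytes differed in quality between genotypes: the median mitochondrial share was 9.68% in the transgenic and 5.27% in the wildtype library, and the median UMIs per cell were 6638.5 and 7983. For midbrain astrocytes, and for microglia and endothelial cells of both regions, the mitochondrial medians of the pair lay within 1 percentage point. Depth differed in midbrain, where transgenic cells had more UMIs. The medians were 7923.5 and 6320 in astrocytes, 8317.5 and 6749 in microglia and 8460 and 7221.5 in endothelial cells.

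The stretches around the transcription start of 3 genes are shown because the genotype differences below were largest, or most widespread, in Tnfrsf12a and Nfkbia, and Tnfaip3 is the other feedback inhibitor of the list. Each runs from 250 bases before to 50 bases after the start in RefSeq on GRCm38.p6, read on the minus strand from 5′ to 3′. Capitals mark matches to the NF-kB consensus.
Nfkbia, chr12:55492598-55492897: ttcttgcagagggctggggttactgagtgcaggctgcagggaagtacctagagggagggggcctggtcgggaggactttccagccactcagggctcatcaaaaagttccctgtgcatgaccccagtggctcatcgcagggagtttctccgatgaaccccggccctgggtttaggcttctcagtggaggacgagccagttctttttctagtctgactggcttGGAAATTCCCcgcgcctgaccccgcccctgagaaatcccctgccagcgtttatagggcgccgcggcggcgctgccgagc
Tnfaip3, chr10:19015361-19015660: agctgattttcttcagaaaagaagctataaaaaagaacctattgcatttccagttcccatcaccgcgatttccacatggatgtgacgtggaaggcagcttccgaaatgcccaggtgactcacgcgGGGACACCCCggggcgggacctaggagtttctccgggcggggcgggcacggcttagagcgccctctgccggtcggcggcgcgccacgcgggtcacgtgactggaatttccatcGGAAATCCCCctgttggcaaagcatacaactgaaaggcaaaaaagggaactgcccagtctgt
Tnfrsf12a, chr17:23677400-23677699: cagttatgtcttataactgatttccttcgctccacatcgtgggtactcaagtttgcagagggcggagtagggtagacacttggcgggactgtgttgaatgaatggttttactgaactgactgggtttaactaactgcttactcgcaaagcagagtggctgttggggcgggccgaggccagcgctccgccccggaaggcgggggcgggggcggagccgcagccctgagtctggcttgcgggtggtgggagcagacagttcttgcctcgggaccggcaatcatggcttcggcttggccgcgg
The Nfkbia window held 1 match, 29 to 20 bases before the start. Tnfaip3 held 2, at 125 to 116 and 12 to 3 bases before the start, in the second of its annotated windows. No match lay in the Tnfrsf12a window. Promoters were found for 8 of the 10 genes in 9 windows, and no other window of these held a match. Of all 32851 promoters of the same length, 1480 (4.51%) held the consensus on either strand. The AP-1 core TGANTCA, likewise searched on both strands, was in the Il1a and Tnfaip3 windows and in 2565 of all promoters (7.81%). These are matches of letters and do not show binding.

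The ligand genes Tnf, Il1a and Il1b were found in immune cells: Tnf and Il1a mainly in microglia, Il1b at higher levels in macrophages than in microglia. Levels are given as CPM, the gene's UMIs per 1e+06 UMIs of a cell type in a library, in the order frontal cortex transgenic and wildtype, then midbrain transgenic and wildtype. Tnf (chr17:35199381-35202007 on GRCm38, the build of all gene positions here) stood in microglia at 281, 147, 393 and 390 CPM. Macrophages carried it at 179, 249, 95.8 and 236 CPM. The wildtype frontal cortex library was thus the lowest for microglia, and the only one in which macrophages were above microglia. Microglia held 93.4%, 85.6%, 93.2% and 87.3% of all Tnf UMIs of the 4 libraries.

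Il1a (chr2:129299610-129309972), which encodes IL-1 alpha, was more narrowly microglial. Its microglial levels were 250, 212, 335 and 305 CPM, and 97.2%, 95.2%, 93.5% and 92.1% of its UMIs came from microglia. In macrophages it was at 17.9, 10.5, 47.9 and 78.1 CPM, and in midbrain 21 of the 26 transgenic and 40 of the 88 wildtype macrophage UMIs came from a single cell each. Il1a therefore stayed below its microglial level in the macrophages of all 4 libraries.

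Il1b (chr2:129364570-129371139), the gene of secreted IL-1 beta, had the opposite order. Macrophages carried it at 354, 477, 535 and 580 CPM, and microglia at 28.9, 19.6, 44.7 and 39.8 CPM. This order is one of level. In UMIs, macrophages held 238, 407, 290 and 654 and the more numerous microglia 303, 279, 290 and 305. Il1b was seen in a minority of macrophages, namely 15.3%, 14.3%, 15.7% and 23.6% of them. The 10 macrophages with most of it held 228 of 238, 399 of 407, 289 of 290 and 455 of 654 Il1b UMIs. In midbrain the cells labelled MNC, which led for 10 of 10 markers of other immune cells, had Il1b at 471 CPM (transgenic) and 546 CPM (wildtype). A macrophage mean for Il1b thus describes few cells.

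Low levels of the immune ligands also appeared in other cell types. In astrocytes Tnf was at 5.44, 4.24, 2.34 and 2.67 CPM and Il1a at 3.58, 5.65, 2.86 and 2.004 CPM. Set against the microglial marker genes found in the same astrocytes, these levels were close to those of microglia themselves. Per 1000 microglial marker UMIs, Tnf was at 8.89, 3.62, 7.70 and 9.64 UMIs in astrocytes and at 6.07, 3.27, 9.47 and 9.86 in microglia. Il1a was at 5.85, 4.82, 9.41 and 7.23 in astrocytes and at 5.40, 4.72, 8.07 and 7.71 in microglia. Il1b was at 1.64, 0.30, 4.85 and 3.29 in astrocytes, from 7, 3, 17 and 15 UMIs, and at 0.62, 0.44, 1.08 and 1.01 in microglia. Whether these astrocyte counts are carried-over RNA or expression was not tested.

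Tnfsf12 (chr11:69686250-69695849), the TWEAK gene, was spread over vessel, mural, macrophage and OPC-labelled cells. Endothelial cells carried it at 89.9, 76.8, 90.2 and 77.3 CPM and PC cells at 72.8, 97.5, 105 and 109 CPM. Its macrophage levels were 71.5, 62.1, 81.1 and 78.1 CPM, and its SMC levels 52.6, 58.4, 49.2 and 57.6 CPM. Microglia had 37.6, 42.9, 36.7 and 40.6 CPM and astrocytes 26.4, 39.6, 20.6 and 24.7 CPM, the lowest of these 6 cell types in every library. The cells labelled OPC had 61.3, 81.1, 98.1 and 136 CPM, in 35 to 93 cells. They led for fibroblast markers, and in frontal cortex for oligodendrocyte progenitor markers too. Tnfsf12 shares its locus and strand with the readthrough gene Tnfsfm13, which has a row of its own, so its counts are uncertain.

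**Figure D1:**
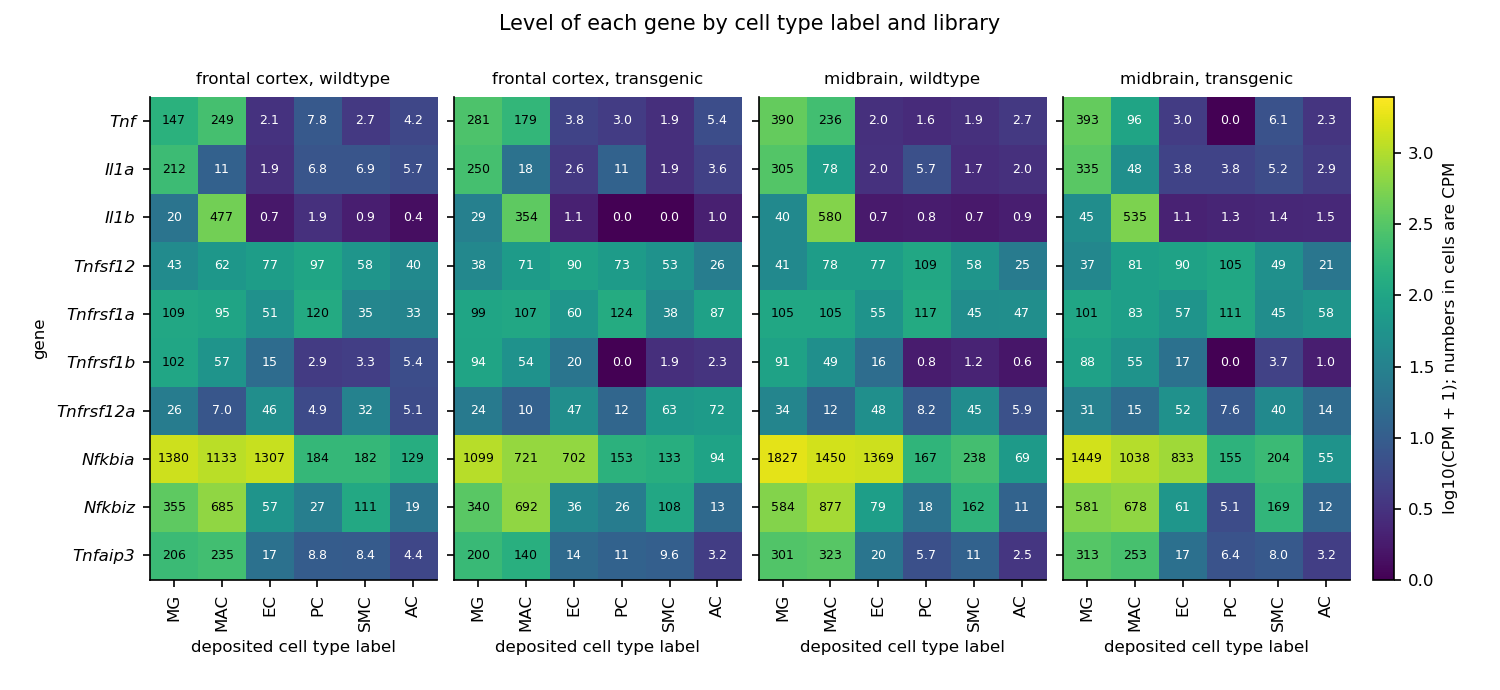
Level of each of the 10 genes (rows) in 6 deposited cell type labels, given for each of the 4 libraries, as CPM printed in each square and shaded by log10(CPM + 1). Il1a is highest in the microglial and Il1b in the macrophage column of every library, while Tnfrsf12a in astrocytes stands at 72.3 CPM in the transgenic frontal cortex library and at 5.06, 13.8 and 5.89 CPM in the other libraries.

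The TNF receptors followed a broad and a narrow pattern. Tnfrsf1a (chr6:125349362-125362484) was present in all 6 cell types shown. PC cells carried it at 124, 120, 111 and 117 CPM, microglia at 99.4, 109, 101 and 105 CPM, and macrophages at 107, 94.9, 82.9 and 105 CPM. Endothelial cells had 60.2, 51.2, 56.8 and 55.2 CPM and SMC cells 38.2, 35.2, 45.4 and 44.9 CPM. In these 5 cell types no genotype pair differed past the size rule given below, whereas in astrocytes Tnfrsf1a was at 87.1, 33.0, 58.3 and 47.5 CPM. The 95% counting intervals of PC cells, microglia and macrophages overlapped in each library, and those of these 3 types lay above the interval of SMC cells. In frontal cortex the cells labelled mNeur had 2.75 and 1.70 CPM.

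Tnfrsf1b (chr4:145213463-145246870) was microglial, at 94.4, 102, 88.4 and 91.1 CPM. Macrophages had 53.6, 57.4, 55.3 and 48.8 CPM and endothelial cells 19.7, 15.1, 17.3 and 15.5 CPM. Per 1000 microglial marker UMIs, Tnfrsf1b was at 47.9, 53.8, 94.4 and 73.3 UMIs in endothelial cells and at 2.04, 2.26, 2.13 and 2.31 in microglia. The part of RNA carried over from macrophages or other immune cells in the endothelial counts was not tested. Astrocytes held it at 2.29, 5.41, 0.955 and 0.607 CPM. In midbrain the cells labelled MNC had 153 CPM (transgenic, 33 cells) and 95.1 CPM (wildtype, 91 cells), the latter with an interval that overlapped that of microglia.

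Tnfrsf12a (chr17:23675445-23677468), the Fn14 gene, was highest in endothelial cells in both wildtype libraries. Endothelial cells carried it at 46.7, 46.2, 52.0 and 48.3 CPM, SMC cells at 63.1, 31.6, 39.8 and 44.7 CPM and microglia at 24.4, 25.9, 30.5 and 34.5 CPM. Macrophages and PC cells were lower, at 7.03 to 14.7 and at 4.87 to 12.1 CPM. In astrocytes Tnfrsf12a stood at 72.3 CPM in transgenic and 5.06 CPM in wildtype frontal cortex, and at 13.8 and 5.89 CPM in midbrain. Astrocytes thereby held 40.4% of all Tnfrsf12a UMIs of the transgenic frontal cortex library and 2.79% of those of the wildtype one. The midbrain shares were 17.7% and 6.50%.

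The NF-kB targets were high in microglia and macrophages, and Nfkbia in endothelial cells as well. Nfkbia (chr12:55489410-55492647) reached 1099, 1380, 1449 and 1827 CPM in microglia, 721, 1133, 1038 and 1450 CPM in macrophages, and 702, 1307, 833 and 1369 CPM in endothelial cells. Each of these 3 cell types had less Nfkbia in the transgenic than in the wildtype library of its region. Astrocytes had 93.5, 129, 55.4 and 69.2 CPM. PC cells ran from 153 to 184 CPM and SMC cells from 133 to 238 CPM.

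Nfkbiz (chr16:55811375-55838899) was at 692, 685, 678 and 877 CPM in macrophages and at 340, 355, 581 and 584 CPM in microglia. SMC cells had 108, 111, 169 and 162 CPM, and endothelial cells 36.4, 56.8, 61.0 and 78.6 CPM. Tnfaip3 (chr10:19000910-19015657) was at 200, 206, 313 and 301 CPM in microglia and at 140, 235, 253 and 323 CPM in macrophages. Endothelial cells had 14.2, 17.4, 17.0 and 19.7 CPM. The cells labelled MNC had more Tnfaip3 than either, at 327, 279, 633 and 413 CPM, in 22 to 91 cells. Nfkbiz and Tnfaip3 were higher in midbrain than in frontal cortex microglia in both genotypes.

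The largest genotype difference among the 10 genes was in frontal cortex astrocytes, where both Tnfrsf12a and Tnfrsf1a were higher in the transgenic library. Ratios are log2 of transgenic over wildtype CPM, with an exact 95% interval that covers counting error only. A gene was counted as past the size rule when its mean over the pair was at least 10 CPM and its log2 ratio was at least 0.58 (1.5 times) in size. Tnfrsf12a rested on 505 transgenic and 43 wildtype UMIs and had a log2 ratio of 3.84 (3.39 to 4.32). Tnfrsf1a rested on 608 and 280 UMIs and had a log2 ratio of 1.40 (1.20 to 1.61). Of the 5 genes with enough counts, these 2 were past the rule upwards, against 3.87% of all 9028 genes measured in these astrocytes, and Tnfsf12 was past it downwards at -0.59 (-0.85 to -0.32), against 3.66% of all genes. Tnfrsf12a, at 72.3 and 5.06 CPM, passed the level filter only through the transgenic library, so its direction in this count was fixed by the filter. When the total excluded genes of mitochondria and of ribosomal proteins, the split over all genes was 5.33% higher and 2.99% lower, and Tnfsf12 was then at -0.53, no longer past the rule. Nfkbia was at -0.47 (-0.61 to -0.33) and Nfkbiz at -0.51 (-0.89 to -0.14). The median over the 5 genes was -0.47, beside 0.01 over all genes.

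The largest deposited cluster of frontal cortex astrocytes was cluster 1 in both genotypes, with 390 of 868 transgenic and 781 of 1067 wildtype cells. Within it Tnfrsf12a was at 23.0 and 4.67 CPM (log2 ratio 2.30, 1.71 to 2.93) and Tnfrsf1a at 51.9 and 32.1 CPM (0.69, 0.41 to 0.98). The ratios were larger in cluster 4 (309 and 205 cells): Tnfrsf12a was at 97.1 and 5.75 CPM, from 86 and 3 UMIs, with a log2 ratio of 4.08 (2.48 to 6.38), and Tnfrsf1a was at 112 and 30.7 CPM (1.87, 1.10 to 2.73). In cluster 11 (116 and 34 cells) both receptors were among the 50 genes that marked the cluster most, so only levels are given: Tnfrsf12a was at 169 and 9.10 CPM and Tnfrsf1a at 148 and 36.4 CPM. Cluster 22 (53 and 47 cells) had 4 and 2 UMIs of Tnfrsf12a, too few to compare, and Tnfrsf1a at 0.48 (-0.44 to 1.44) from 28 and 17 UMIs. Nfkbia did not follow the receptors: its ratio was -0.62 in cluster 1, -0.03 in cluster 4, 0.05 in cluster 11 and -1.24 (-2.38 to -0.19) in cluster 22.

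More of these astrocytes carried Fn14 RNA, too. After every cell was thinned to 3000 UMIs, Tnfrsf12a was seen in 78 of 635 transgenic cells (12.3%) and in 12 of 867 wildtype cells (1.38%), and without thinning in 18.8% and 3.66%. Endothelial cells of frontal cortex, which carry the gene, were at 13.4% and 12.1% after thinning, and the cells labelled imNeur, which gave 3.32 and 1.25 CPM, at 0% and 1.11%. The wildtype astrocyte share was therefore near that of cells that largely lack the gene. The 10 transgenic astrocytes with most Tnfrsf12a held 175 of the 505 UMIs. Without the top cell the log2 ratio was 3.86.

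In the transgenic libraries, astrocytes with Tnfrsf12a also carried other genes of reactive astrocytes more often. Among thinned transgenic frontal cortex astrocytes, Gfap (the filament protein of reactive astrocytes) was seen in 80.8% of cells with Tnfrsf12a and in 42.5% of those without. Cd44, a surface receptor for hyaluronan, was seen in 29.5% and 5.57%, and Tnfrsf1a in 39.7% and 17.4%. In the transgenic midbrain library, where 31 of 1201 thinned astrocytes had Tnfrsf12a, Gfap was seen in 35.5% and 12.4% and Cd44 in 16.1% and 1.20%. The wildtype libraries had few such cells and did not show this for Gfap or Tnfrsf1a. Among wildtype frontal cortex astrocytes Gfap was seen in 1 of 12 cells with Tnfrsf12a (8.33%) and in 15.3% of those without, and Tnfrsf1a in 0 of 12 and in 8.42%. Among wildtype midbrain astrocytes, of which 36 had Tnfrsf12a, the shares were 8.33% and 10.5% for Gfap, 5.56% and 12.8% for Tnfrsf1a, and 5.56% and 0.322% for Cd44.

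Several measures moved with the frontal cortex astrocyte result. The microglial markers summed to 612 CPM in transgenic and 1171 CPM in wildtype astrocytes and the endothelial markers to 251 and 628 CPM. Erythroid markers summed to 314 and 20.1 CPM, and their part in the ratios was not tested. The 14 genes of a dissociation and immediate early list summed to 910 and 1723 CPM. Among astrocytes under 10% mitochondrial UMIs the ratios were 4.01 for Tnfrsf12a and 1.495 for Tnfrsf1a, as large as in all astrocytes. Among the 48 transgenic and 124 wildtype cells with fewer than 4 UMIs of other types' markers they were 3.55 and 0.90.

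In midbrain astrocytes the same receptors differed in few clusters. Tnfrsf1a was at 0.30 (0.15 to 0.45), Tnfsf12 at -0.26 (-0.50 to -0.03), Nfkbia at -0.32 (-0.46 to -0.18) and Nfkbiz at 0.12 (-0.21 to 0.45). None of these 4 was past the rule, which 1.02% of all 9061 genes passed upwards and 0.739% downwards. Tnfrsf12a lay below the level filter, with 159 and 97 UMIs and a log2 ratio of 1.23 (0.86 to 1.61). The largest cluster was cluster 1 for transgenic cells (557 of 1512) and cluster 3 for wildtype cells (802 of 2644). In cluster 1 both receptors were level, at 0.07 (-0.57 to 0.72) for Tnfrsf12a and 0.03 (-0.21 to 0.27) for Tnfrsf1a.

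Cluster 10 of midbrain astrocytes (106 transgenic and 284 wildtype cells) stood out. Tnfrsf12a was at 58.4 and 4.02 CPM there (log2 ratio 3.86, 2.85 to 5.05) and Tnfrsf1a at 94.6 and 30.8 CPM (1.62, 1.17 to 2.08). Gfap was at 1041 and 180 CPM in the same cells. In cluster 22 (61 and 63 cells), Tnfrsf12a was among the cluster's marking genes, at 171 and 21.6 CPM from 16 and 3 UMIs, and Tnfrsf1a had 14 and 2 UMIs. The genotype ratio was larger in frontal cortex than in midbrain by 2.61 for Tnfrsf12a and by 1.11 for Tnfrsf1a on the log2 scale, a difference that cannot be tested with 1 library each.

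**Figure D2:**
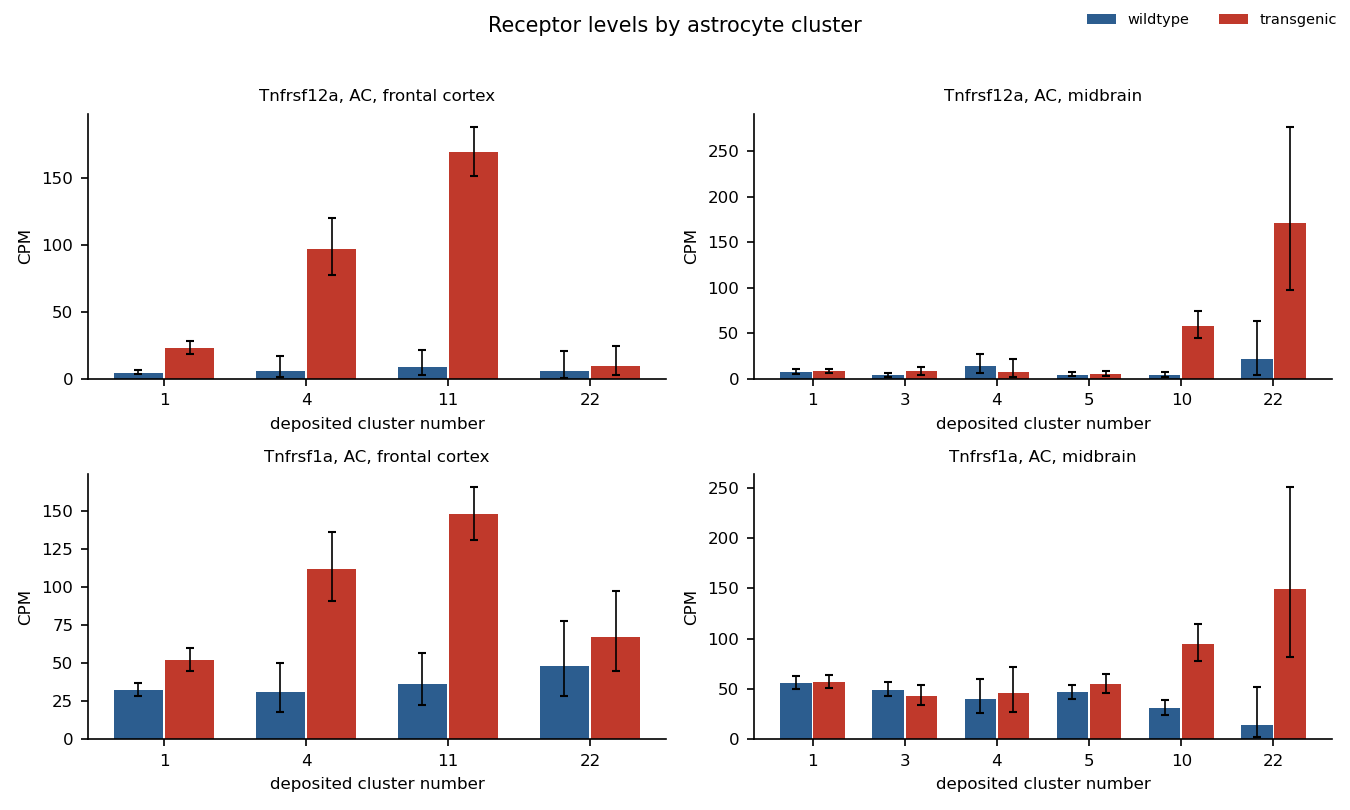
Levels of Tnfrsf12a (upper row) and Tnfrsf1a (lower row) in CPM by deposited astrocyte cluster, in frontal cortex (left) and midbrain (right), with wildtype in blue and transgenic in red. Bars are 1 library each and error bars are exact 95% Poisson intervals of the count; Tnfrsf12a reached 97.1 and 169 CPM in transgenic clusters 4 and 11 of frontal cortex and 58.4 CPM in transgenic cluster 10 of midbrain.

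Microglia differed between genotypes in the ligand Tnf, in frontal cortex. Tnf was at 281 CPM (2955 UMIs) in transgenic and 147 CPM (2093 UMIs) in wildtype cells, with a log2 ratio of 0.94 (0.85 to 1.02). It alone of the 10 genes was past the rule upwards, against 1.44% of all 8444 genes, and none was past it downwards, against 1.22%. Il1b was at 0.56 (0.32 to 0.80), Il1a at 0.24 (0.16 to 0.31) and Nfkbia at -0.33 (-0.36 to -0.30). The receptors were close to level, with Tnfrsf1a at -0.13, Tnfrsf1b at -0.11 and Tnfrsf12a at -0.09, as were Nfkbiz at -0.06 and Tnfaip3 at -0.04. The median of the 10 was -0.07, beside -0.04 over all genes.

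Tnf was seen in similar shares of microglia, 37.0% (transgenic) and 36.1% (wildtype), and in 27.2% and 21.3% after thinning to 3000 UMIs. Thinned astrocytes of the same libraries were at 1.73% and 1.15%. The UMIs were concentrated: the tenth of cells with most Tnf held 76.1% of its UMIs in transgenic and 66.8% in wildtype microglia. Leaving out the top cell of each library gave a log2 ratio of 0.94.

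The microglial clusters differed in Tnf. The largest cluster was cluster 3 for transgenic cells (533 of 1445) and cluster 2 for wildtype cells (773 of 1912). Cluster 2, which Tnf itself helped to mark, held 2270 of 2955 Tnf UMIs in transgenic mice and 1405 of 2093 in wildtype mice, at 614 and 230 CPM. In cluster 3 Tnf was at 49.5 and 54.5 CPM (log2 ratio -0.14, -0.44 to 0.16), in cluster 7 at 152 and 114 CPM (0.41, 0.20 to 0.63) and in cluster 8 at 210 and 85.5 CPM (1.30, 0.92 to 1.68). The cells of cluster 8 also differed in mitochondrial share, with medians of 7.50% and 3.81%. Nfkbia was lower in the transgenic cells of cluster 3, at 348 and 693 CPM (-0.99, -1.09 to -0.90), and of cluster 8 (-0.66, -0.80 to -0.52). It was at 1477 and 1579 CPM in cluster 7 (-0.10, -0.16 to -0.03), and at 1757 and 1690 CPM in cluster 2, which it helped to mark.

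Other RNA moved with the microglial result as well. Astrocyte markers summed to 681 CPM in transgenic and 351 CPM in wildtype frontal cortex microglia, and erythroid markers to 709 and 44.1 CPM. The dissociation and immediate early list summed to 24551 and 27149 CPM. Its heat shock genes were higher in transgenic microglia, with Hspa1b at 1.32 and Hspa1a at 0.94, and Fosb was at 0.60. The part of these in the Tnf ratio was not tested. Among the 64 transgenic and 353 wildtype microglia with few UMIs of other types' markers the Tnf ratio was 0.57, just below the rule.

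Midbrain microglia showed no such difference. Tnf was at 393 and 390 CPM, with a log2 ratio of 0.01 (-0.07 to 0.09), Il1a at 0.14 (0.05 to 0.22) and Il1b at 0.17 (-0.07 to 0.40). None of the 10 genes was past the rule, which 1.21% of all 8429 genes passed upwards and 3.19% downwards. Nfkbia was lower by about as much as in frontal cortex, at -0.33 (-0.37 to -0.30). As in frontal cortex, heat shock genes were higher in transgenic cells (Hspa1b at 1.43, Hspa1a at 0.90), and Fosb was at 0.94. Of the 14 genes of that list 4 were past the rule upwards and none downwards. Erythroid markers summed to 1700 and 47.4 CPM, and astrocyte markers to 455 and 927 CPM. The part of these in the ratios was not tested. Between regions, wildtype midbrain microglia were above wildtype frontal cortex microglia by a log2 ratio of 1.40 (1.32 to 1.49) in Tnf, 1.02 in Il1b, 0.72 in Nfkbiz, 0.55 in Tnfaip3 and 0.52 in Il1a. In transgenic microglia the regions differed by 0.48 (0.40 to 0.56) in Tnf. The dissociation and immediate early list was higher in midbrain microglia too. It summed to 35241 CPM (transgenic) and 32396 CPM (wildtype) there, and to 24551 and 27149 CPM in frontal cortex. Its part in the regional ratios was not tested.

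Microglia with Tnf more often carried Il1a and Nfkbiz in all 4 libraries. In thinned cells, Il1a was seen in 47.8%, 45.8%, 57.3% and 54.9% of microglia with Tnf and in 33.8%, 34.1%, 41.6% and 36.0% of those without. For Nfkbiz the shares were 60.1%, 61.5%, 71.1% and 71.6% with Tnf and 37.0%, 41.7%, 46.1% and 46.7% without. The receptor Tnfrsf1b did not differ in transgenic frontal cortex microglia, at 26.7% and 26.3%.

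In endothelial cells the brake Nfkbia was lower in the transgenic libraries of both regions, while no receptor was past the size rule. Nfkbia was at 702 and 1307 CPM in frontal cortex (5836 and 27757 UMIs; log2 ratio -0.90, -0.94 to -0.86) and at 833 and 1369 CPM in midbrain (-0.72, -0.76 to -0.67). Nfkbiz was at -0.64 (-0.83 to -0.46) in frontal cortex and -0.36 (-0.53 to -0.20) in midbrain. In frontal cortex these 2 of 7 genes were past the rule downwards, against 0.949% of all 8533 genes, and none was past it upwards, against 1.37%. With TMM scaling, the split over all genes was 1.04% higher and 1.18% lower. Nfkbiz lost its call with clusters weighted alike, at -0.48. In midbrain Nfkbia alone of 7 was past it downwards, against 1.06% of all 8576 genes, with none upwards, against 1.12%.

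The endothelial receptors and the TWEAK gene stayed within the rule. Tnfrsf12a was at 0.01 (-0.16 to 0.18) in frontal cortex and 0.10 in midbrain, and Tnfsf12 at 0.23 and 0.22. Tnfrsf1a was at 0.24 and Tnfrsf1b at 0.38 (0.10 to 0.66) in frontal cortex. Tnfaip3, the other feedback inhibitor, was at -0.29 there.

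The lower endothelial Nfkbia was found in every deposited cluster compared. In frontal cortex the ratio was -0.91 in cluster 0 (709 and 1336 CPM), -0.80 in cluster 5, -0.96 in cluster 6 and -0.82 in cluster 14. In midbrain it was -0.75 in cluster 0 (846 and 1421 CPM), -0.60 in cluster 6, -0.83 in cluster 9 and -0.65 in cluster 14. All 8 counting intervals left out 0. The median endothelial cell had 6 Nfkbia UMIs in the transgenic and 10 in the wildtype frontal cortex library, and 6 and 9 in midbrain. Over all cell types with enough cells and counts, Nfkbia was lower in the transgenic library in 14 of 15 pairs, and past the size rule in 5. These pairs are cell types of the same libraries, so they are not independent. The like count over all genes was not made.

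Dissociation-linked genes moved the same way in endothelial cells. The 14 genes of that list, which are induced quickly when tissue is taken apart, summed to 8002 CPM in transgenic and 13824 CPM in wildtype frontal cortex endothelial cells. In that comparison 7 of 14 were lower past the rule and none higher. In midbrain 2 of 14, Dusp1 and Atf3, were lower. Astrocyte markers summed to 422 and 216 CPM in frontal cortex endothelial cells and erythroid markers to 533 and 24.3 CPM. The part of any of these in the Nfkbia ratio was not tested.

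**Figure D3:**
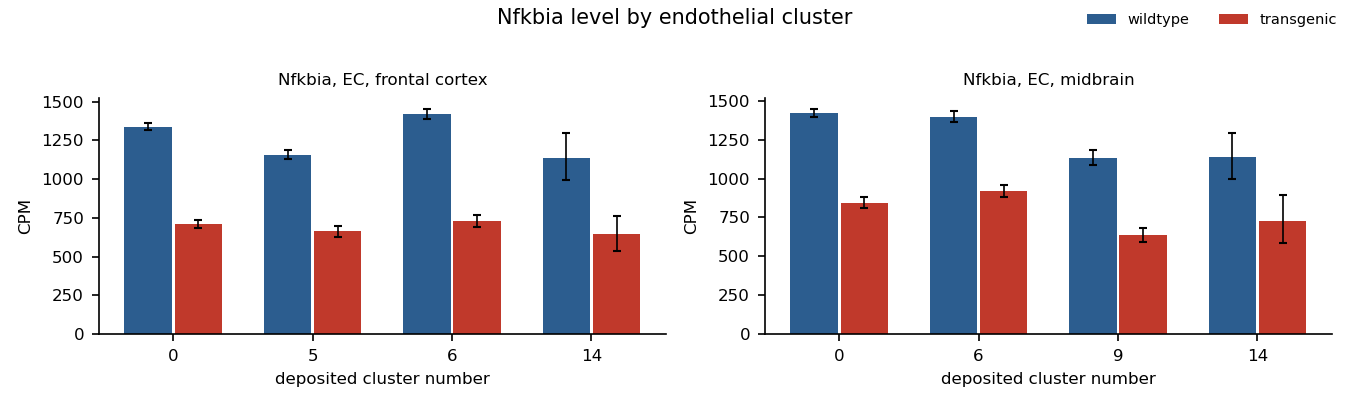
Level of Nfkbia in CPM by deposited endothelial cluster in frontal cortex (left) and midbrain (right), wildtype in blue and transgenic in red. Bars are 1 library each and error bars are exact 95% Poisson intervals of the count; the transgenic bar is the lower in all 8 clusters, with 709 and 1336 CPM in cluster 0 of frontal cortex.

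In macrophages, with 70 to 157 cells per library, the ratios of Tnf, Nfkbia and Tnfaip3 were below 0 in both regions, with intervals that left out 0. Tnf was at -0.48 (-0.82 to -0.15) in frontal cortex and -1.30 (-1.76 to -0.87) in midbrain. Nfkbia was at -0.65 (-0.81 to -0.49) and -0.48 (-0.62 to -0.34), and Tnfaip3 at -0.75 (-1.12 to -0.39) and -0.36 (-0.65 to -0.07). Il1a was at -0.70 (-1.40 to -0.06) in midbrain, on counts that rest on few cells, as given above, and at 0.76 (-0.61 to 2.19) in frontal cortex, from 12 and 9 UMIs. Other markers in these macrophages differed between genotypes too. In frontal cortex the endothelial markers summed to 136 CPM in transgenic and 857 CPM in wildtype macrophages, and the astrocyte markers to 463 and 152 CPM. In midbrain the astrocyte markers summed to 487 and 1214 CPM and the dissociation and immediate early list to 26692 and 33895 CPM. Their part in these ratios was not tested. Among SMC cells Tnfrsf12a was at 0.996 (0.53 to 1.45) in frontal cortex, from 66 and 105 UMIs, and at -0.17 in midbrain.

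**Figure D4:**
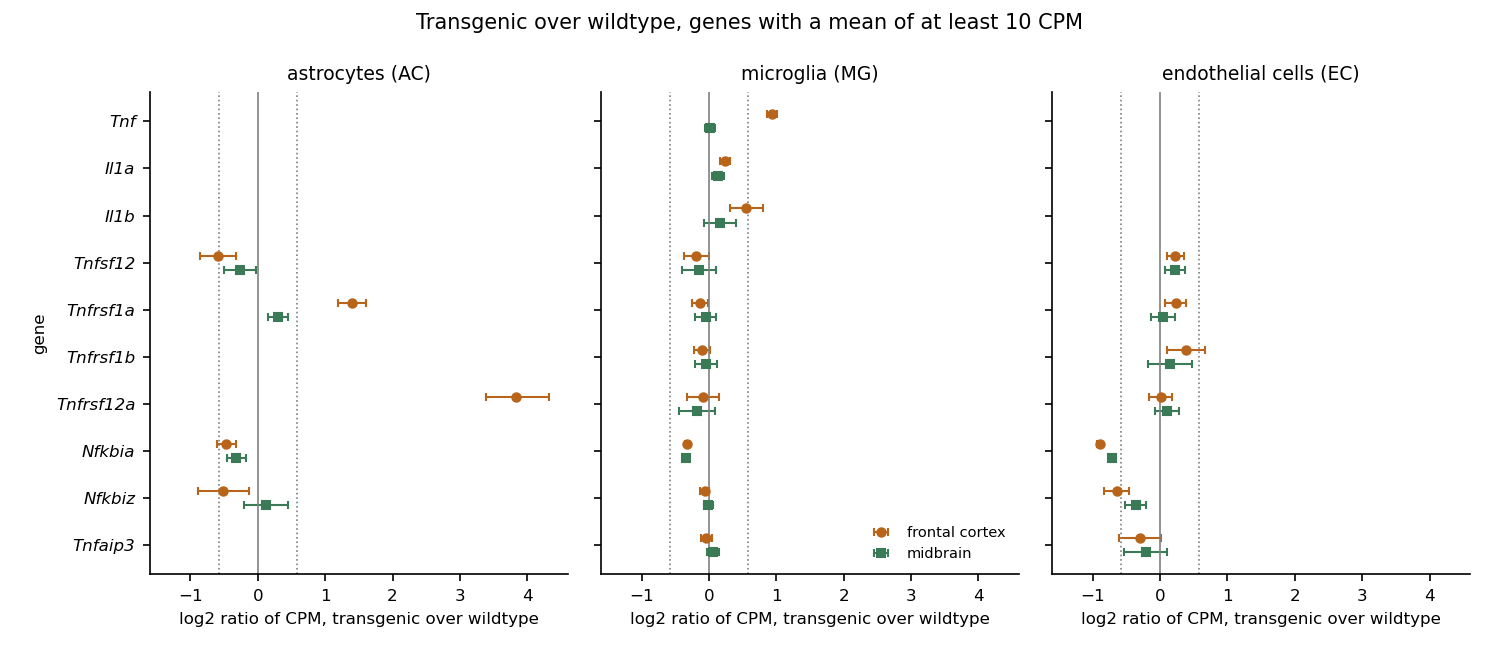
Log2 ratio of transgenic over wildtype CPM for the genes with a mean of at least 10 CPM in astrocytes, microglia and endothelial cells, with exact 95% counting intervals. Circles are frontal cortex, squares are midbrain and dotted lines mark 0.58 in size; Tnfrsf12a lies at 3.84 in frontal cortex astrocytes, Tnf at 0.94 in frontal cortex microglia, and Nfkbia at -0.90 and -0.72 in endothelial cells.

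Other genes of the pathway were counted from lists of receptors, adaptors, NF-kB subunits, feedback regulators and cytokine targets. The lists overlap: Zfp36 is on both the feedback list and the dissociation and immediate early list, and is counted in each. In frontal cortex astrocytes the only other receptor with enough counts, Ltbr (the lymphotoxin beta receptor), was higher at 0.75. Of 13 adaptors, Traf2 (0.65) and Map3k14, the kinase of the noncanonical NF-kB pathway (0.59), were higher and none lower. Map3k14 was only just past the rule (interval 0.16 to 1.03). Relb, the subunit which that pathway releases, was higher at 0.90, 1 of 4 subunits and inhibitors. Levels were low, at 12.7 and 8.12 CPM for Traf2, 14.8 and 9.77 for Map3k14 and 14.8 and 7.89 for Relb. All were under 10 CPM in wildtype. Over all genes 3.87% were higher. Il1r1, the receptor of both IL-1 ligands, fell below the level filter and was picked after its values were seen: it was at 9.60 and 2.35 CPM in frontal cortex (2.03, 1.29 to 2.83) and at 3.73 and 1.21 CPM in midbrain astrocytes (1.62, 0.82 to 2.46).

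Feedback genes and cytokine targets of frontal cortex astrocytes went both ways. Among 8 feedback regulators, Socs3, which restrains JAK-STAT signalling, was higher at 1.64, and Zfp36 (-0.90) and Tsc22d3 (-0.76) were lower. Of 9 cytokine targets, 3 were higher and 3 lower, against 3.87% and 3.66% of all genes. Among them were Gadd45b at 1.96, Cebpd at 1.93 and Ccl3 at -1.54 (24.1 and 69.9 CPM). Microglial markers summed to 612 CPM in these transgenic and 1171 CPM in these wildtype astrocytes. The part of microglial RNA in the Ccl3 ratio was not tested. Reactive astrocyte genes were higher for all 10 tested of 14 on the list, with a median of 3.18. The level filter used the mean of the pair, so genes under 10 CPM in wildtype entered only through the transgenic library. Serpina3n (46.6 and 1.77 CPM), Ptx3 (36.1 and 1.41 CPM) and Timp1 (22.3 and 0 CPM) did so, and their direction was thus fixed by the filter. Serpina3n, a protease inhibitor gene, was at 4.72 and Ptx3 at 4.68, while Timp1 had 156 UMIs in the transgenic library against 0 in the wildtype library. The dissociation and immediate early list was lower for 11 of 14 and higher for none, with Klf2 at -2.01, Btg2 at -1.76 and Nr4a1 at -1.68.

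Midbrain astrocytes had fewer such differences. Irak2, an IL-1 receptor kinase, was higher at 0.64, the only one of 12 adaptors, and Zfp36 was lower at -0.64, the only one of 8 feedback regulators. Of 9 cytokine targets 3 were lower (Cebpb, Ccl3 and Ccl4) and none higher. Over all genes 0.739% were lower and 1.02% higher. Ccl3 was at 15.5 and 23.9 CPM in these astrocytes, and at 1596 and 2483 CPM in midbrain microglia. Microglial markers summed to 304 and 277 CPM in the astrocytes. The part of microglial RNA in the Ccl3 and Ccl4 ratios was not tested. Serpina3n was higher at 1.33, 1 of 5 reactive astrocyte genes tested.

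Adaptors and NF-kB subunits were level in microglia. In frontal cortex none of 20 adaptors, 8 NF-kB subunits and inhibitors, 10 feedback regulators and 2 other receptors was past the rule. Of 15 cytokine targets, 3 were higher, namely the chemokines Cxcl2 (1.21) and Cxcl10 (0.70) and the adhesion gene Vcam1 (1.09), and none was lower. Over all genes 1.44% were higher and 1.22% lower. Cxcl2, at 16.5 and 7.10 CPM, passed the level filter only through the transgenic library, so its direction was fixed by the filter. In midbrain microglia 4 of 15 were lower, among them Cebpb at -0.73, Ccl3 at -0.64 and Gadd45b at -0.61, and none was higher. Over all genes 3.19% were lower there and 1.21% higher.

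Few cytokine targets were past the rule in endothelial cells. In frontal cortex Cxcl10 was at 22.8 and 1.65 CPM (3.79, 3.27 to 4.36) and Ptgs2, which encodes cyclooxygenase-2, at 27.3 and 6.36 CPM (2.10, 1.79 to 2.42), 2 of 13 targets with none lower. Bcl3, an atypical IkB protein, was higher at 1.44 (19.8 and 7.30 CPM), 1 of 7 subunits and inhibitors. The adaptor Myd88 was higher at 0.84 (16.8 and 9.42 CPM), 1 of 19. Over all genes 1.37% were higher and 0.949% lower. Cxcl10, Ptgs2, Bcl3 and Myd88 were all under 10 CPM in wildtype, so the level filter fixed their direction. Zfp36 (-0.80), also counted on the dissociation list, and Tsc22d3 (-0.69) were lower among 9 feedback regulators. In midbrain Ptgs2 (1.34) and Bcl3 (1.06) were again higher, 1 of 12 targets and 1 of 7 subunits and inhibitors. The target Ccl4 (-0.62) and Tsc22d3 (-0.60) were lower there. Over all genes 1.12% were higher and 1.06% lower. Ccl4 was at 21.9 and 33.8 CPM, and microglial markers summed to 183 and 212 CPM in these cells. The part of microglial RNA in the Ccl4 ratio was not tested.

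Across 38 pools of a label, region and genotype, the genes whose levels ran most like those of 9 of the 10 genes were named by Pearson's r of log2(CPM + 1) over 12846 genes, with no test, since pools share libraries. Tnf ran most like Csf2rb, Bcl2a1b and Vav1 (0.97 each), and Il1b like Gpr65 (0.97), Bcl2a1d and Ms4a6c (0.96 each). Tnfrsf1b and Tnfaip3 followed immune genes, with Arhgap25 at 0.93 for the first and Lcp1 at 0.95 for the other. Nfkbiz was closest to Zfp36 (0.96) and Junb (0.93), and Nfkbia to Psmb8, Mcl1 and Psmb9 (0.94 each). Tnfrsf1a was closest to Ltbr and Wipf1 (0.89 each) and Tnfsf12 to Peak1 (0.87). Tnfrsf12a had the loosest matches, Adamts1 at 0.77, Fzd4 at 0.73 and Itga5 at 0.72.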

How the data were processed

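Per the labels' protocols, brain tissue was dissociated with a neural tissue kit aimed at glial and vascular cells, and libraries were made with the 10x Chromium Single Cell 3′ kit, v3. The deposited matrices hold raw UMI counts per gene and cell; the authors made them with Cell Ranger 3.0.0 and Seurat 3.1.5 on mm10, per the submitters' processing notes. A deposited table per region gives each cell's label, cluster, genotype and percent of mitochondrial UMIs. How the authors filtered cells or treated doublets is not given in the sources used here, and all deposited cells were used with no further doublet call.

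From these counts, UMIs were summed per library and label (at least 50 cells) or cluster (at least 20 cells) and scaled to 1e+06. Log2 ratios have exact (Clopper-Pearson) 95% intervals conditional on the summed count, and levels have exact Poisson intervals; both cover counting error only. For a count of 0, 3 UMIs served as the limit. Shares of cells with a gene were computed after thinning each cell to 3000 UMIs. A gene among the 50 that mark a cluster most was not compared between genotypes in it. Members and lists were chosen with earlier results of these data known. The text names all 10 members, up to 3 genes per list with the largest ratio past the size rule, and up to 3 most like genes; those of Il1a are not reported here. Reads come from the 3′ end and were not scaled by length, and levels of different genes are not compared. Whether reads were counted by strand is not given in the sources used here, and Il1a, Il1b and Tnfsf12 overlap antisense genes (Gm14023, Il1bos and Tnfsf13os). Python 3.11.15, numpy 2.4.6, scipy 1.17.1, pandas 2.3.3 and, for TMM factors, edgeR 4.0.16 in R 4.3.3 were used. The ratio and interval steps were tested on simulated data. Alternatives covered scaling, cell filters, cluster weights, level filters and the size rule.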

Additional observations from a re-analysis of the deposited data

Results flagged for a closer look

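Several midbrain labels had under 50 cells in the transgenic library and so entered no genotype comparison. In 3 of them some of the 10 genes stood above the wildtype level, with a counting interval that left out 0, and others stood below it. None of these differences was tested, and each rests on 1 library per genotype.

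In the cells labelled MNC (33 transgenic and 91 wildtype), whose leading markers were those of other immune cells, the log2 ratios of transgenic over wildtype were 0.68 for the receptor Tnfrsf1b, 0.58 for Nfkbia, 1.01 for Nfkbiz and 0.62 for Tnfaip3. Tnfaip3 was at 633 and 413 CPM. Nfkbia was at 1154 and 773 CPM, and 1 transgenic cell held 123 of the 257 Nfkbia UMIs. Tnf was lower there, at -1.84 (-3.52 to -0.53), from 5 and 55 UMIs.

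In the cells labelled OPC (37 and 93), which led for fibroblast markers, the ratios were 1.62 for Tnfrsf12a, from 14 and 11 UMIs, 1.80 for Nfkbiz, at 225 and 64.6 CPM, and 3.59 for Tnfaip3. A single transgenic cell held 16 of the 25 Tnfaip3 UMIs, against 5 in all wildtype cells.

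In the cells labelled mNeur (39 and 104) the immune genes were higher: Tnf by 3.44, Il1a by 2.94, Nfkbia by 1.82, Nfkbiz by 1.60 and Tnfaip3 by 1.90. Single transgenic cells held 46 of the 62 Tnf UMIs, 21 of 44 for Il1a, 93 of 126 for Nfkbia, 25 of 28 for Nfkbiz and 12 of 23 for Tnfaip3. The microglial markers summed to 6313 CPM in these transgenic and 847 CPM in these wildtype cells, a log2 ratio of 2.90, and the dissociation and immediate early list to 10309 and 3104 CPM. Their part in these ratios was not tested. Tnfrsf12a was lower there, at -2.62 (-5.74 to -0.64), from 2 and 28 UMIs.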

How the results depend on the processing

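No paired analysis was possible because each region and genotype has 1 library and no replicate numbers, and for the same reason no library could be left out. Of 366 ratios of single genes recomputed, 311 stayed within their counting interval, 55 moved beyond it and no called ratio changed direction. Tnfrsf12a in frontal cortex astrocytes ran from 3.55 to 4.19, Tnfrsf1a there from 0.90 to 1.64, Tnf in frontal cortex microglia from 0.57 to 1.08, and endothelial Nfkbia from -1.27 to -0.85 in frontal cortex and from -0.74 to -0.70 in midbrain. Nfkbia in frontal cortex astrocytes, which was not past the size rule, ran from -0.51 to 0.73, and Tnfsf12 there left the rule with mean per-cell CPM (-0.44), clusters weighted alike (-0.47) and scaling on other genes than those of mitochondria and ribosomal proteins (-0.53). Counts of the 10 genes past the rule moved as follows. With no level filter they were 6 and 3 in frontal cortex and midbrain astrocytes (3 and 0 in the main setting) and 4 and 4 in endothelial cells (2 and 1). With clusters weighted alike they were 2 in midbrain astrocytes, 2 and 1 in frontal cortex and midbrain microglia (1 and 0) and 1 in frontal cortex endothelial cells. Scaling on the genes outside mitochondria and ribosomal proteins gave 1 in midbrain astrocytes and 2 in frontal cortex microglia, and mean per-cell CPM gave 1 in midbrain astrocytes. A size of 1 on the log2 scale left 0 in frontal cortex microglia and 0 in endothelial cells of both regions. Without cells that held 4 or more UMIs of other types' markers, 5 genes were past the rule in frontal cortex microglia, all downwards, and 4 in frontal cortex endothelial cells, on 64 and 23 transgenic cells; 14.7% and 20.1% of all genes were then higher and 15.5% and 21.4% lower. In midbrain this alternative left 7, 3 and 0 transgenic astrocytes, microglia and endothelial cells and was not run. An alternative of cells under 5% mitochondrial UMIs was chosen after seeing the data. Of the 30 genes found most alike, 16 were among the 10 highest by Spearman's rho. The cause of these moves was not tested. Depth limits astrocyte Tnf, Il1a, Il1b, Tnfrsf1b and Tnfaip3, all under 10 CPM.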

Other observations

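In microglia Nfkbiz differed more by region than by genotype: midbrain over frontal cortex gave a log2 ratio of 0.77 in transgenic and 0.72 in wildtype cells, while transgenic over wildtype gave -0.06 in frontal cortex and -0.01 in midbrain. The dissociation and immediate early list was also higher in midbrain microglia, as given above, and its part in the Nfkbiz ratio was not tested. In astrocytes Tnfrsf12a was lower in midbrain than in frontal cortex of transgenic mice, at -2.39 (-2.66 to -2.13), and at 0.22 in wildtype mice with an interval that included 0. Il1b in frontal cortex microglia differed between genotypes by cluster, at 1.13 (0.47 to 1.82) in cluster 3 and -1.36 (-2.09 to -0.68) in cluster 7, but 1 transgenic cell held 43 of the 68 UMIs in cluster 3 and 1 wildtype cell held 37 of the 98 in cluster 7.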
